A study of Sus scrofa with 4 samples.

Results

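The genes of cholesterol and fatty acid synthesis, with their regulators and 2 cholesterol exporters, were examined in sorted pig lung cells. The set was a list of 33 gene symbols, of which 31 had a row among the 29263 genes of the count tables. LSS and ACACB were not analysed here. EBP was listed by its Ensembl identifier and was matched through a table of gene names, and the other 30 matched by symbol. All 31 passed the filter on low counts. The lungs were from LGR5-H2B-GFP knock-in pigs, whose LGR5 locus (LGR5 is a receptor for R-spondins) drives a green fluorescent protein fused to histone H2B. Every library carries this knock-in, and its zygosity, the age and sex of the animals and the number of pooled animals are not in the sample labels. Live cells were sorted by GFP into bright cells (GFP-HI) and cells lacking fluorescence (GFP-NEG), each sequenced as biological replicates 1 and 2. The protocol names antibodies to EPCAM and NGFR and covers fetal and adult lungs alike, without saying which applies to these libraries. The name of the authors' table of the comparison calls the pigs adult.

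Cholesterol is built from acetyl-CoA through mevalonate, farnesyl diphosphate, squalene and lanosterol, and fatty acids are built from acetyl-CoA through malonyl-CoA and then lengthened and desaturated. Both routes are driven by the sterol regulatory element-binding proteins, made from SREBF1 and SREBF2. SCAP escorts these factors from the endoplasmic reticulum when sterols are scarce, and the INSIG proteins hold SCAP back when sterols are plentiful. Sterol excess also acts through the liver X receptors, which turn on the exporters ABCA1 and ABCG1. In lung, alveolar type 2 cells make fatty acids for surfactant lipid, and alveolar macrophages clear surfactant and export its cholesterol.

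The GFP-HI libraries held 24200550 and 24689986 counts and the GFP-NEG libraries 6292253 and 7045652. Levels are given as CPM, the scaled share of a library's counts, and 1 count stands for 0.0453 to 0.0496 CPM in GFP-HI and for 0.110 to 0.155 CPM in GFP-NEG. LGR5, the check of the sort, was at 146 and 152 CPM in GFP-HI and at 1.55 and 0.767 CPM in GFP-NEG. Of the fibroblast markers, 7 of 10 rose in GFP-HI in edgeR and 10 of 10 in DESeq2, with summed levels of 74466 to 83035 CPM against 9125 to 25349 CPM. Over all genes, 8.35% of 19682 rose in edgeR and 5.60% of 24178 in DESeq2. The labels name lung and no cell type. COL1A2 and COL3A1, which encode fibrillar collagens, led this list in level, and both were higher in GFP-HI without an overlap. They did not pass the threshold in edgeR (adjusted p-values of 0.46 and 0.29) but did in the authors' deposited table (0.016 and 7.5e-04). In bulk RNA, fewer cells of a type and less RNA per cell cannot be told apart. The labels call the replicates biological and headings of the authors' table name pigs 1 and 2, but no label ties a library to an animal. The p-values thus measure the spread between these libraries. In the edgeR fit this spread was shared among genes of similar level (prior degrees of freedom of Inf). A standard error or p-value therefore does not measure that gene's own replicate spread. The standard error was 0.51 for MVD, with GFP-HI libraries 5.48-fold apart, and 0.73 for FDFT1, at 626 and 618 CPM.

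Most genes of the set differed between the fractions by less than the test could separate. With edgeR's quasi-likelihood test, 2 of the 31 genes rose in GFP-HI at a Benjamini-Hochberg adjusted p-value under 0.05, ACACA and FADS1, against 8.35% of the 19682 genes tested. Another 2 fell, ABCG1 and INSIG1, against 27.6% of all genes tested. The median log2 fold change (GFP-HI minus GFP-NEG) was 0.57 over the 31 genes and -0.25 over all genes tested. Among the 10015 genes with a mean of at least 10 CPM, a limit chosen after the data were seen, it was 0.43, and 29 of the 31 genes reach this limit. The set's median difference in log2 CPM, with 0.5 CPM added, was 0.53 in replicate 1 and 0.08 in replicate 2. For genes of at least 10 CPM it was 0.25 and 0.56, and for all genes tested -0.18 and -0.36. The set thus lay above the abundant genes in replicate 1 and below them in replicate 2. Of these abundant genes, 15.2% rose and 10.7% fell, so the balance of calls among them was the reverse of that over all genes tested. Without an overlap between the fractions, 11 genes were higher in GFP-HI (27.7% of all genes tested) and 5 were lower (42.0% of all genes tested). Among the abundant genes these shares were 44.9% and 19.6%, against 35.5% and 16.1% of the set, so the set's share of higher genes lay above that of all genes tested and below that of abundant genes. The 31 genes together took shares of 0.235% and 0.151% of the GFP-HI counts and of 0.195% and 0.204% of the GFP-NEG counts. On these unscaled shares the spread within GFP-HI covered both GFP-NEG values. On the scaled levels used elsewhere, the genes summed to 2580 and 1847 CPM in GFP-HI and to 1901.5 and 1575 CPM in GFP-NEG. There GFP-NEG replicate 2 lay below both GFP-HI libraries. With scaling by library size alone, the median of all genes moved to -0.68 and that of the set to 0.18, and the distance between them was 0.86 in place of 0.82. Under other settings this distance moved more. It was 0.49 with GFP-HI thinned to the GFP-NEG depth, 0.57 with the replicate number as a block and 1.83 with no filter. With libraries left out it ranged from 0.29 to 1.30.

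**Figure D1:**
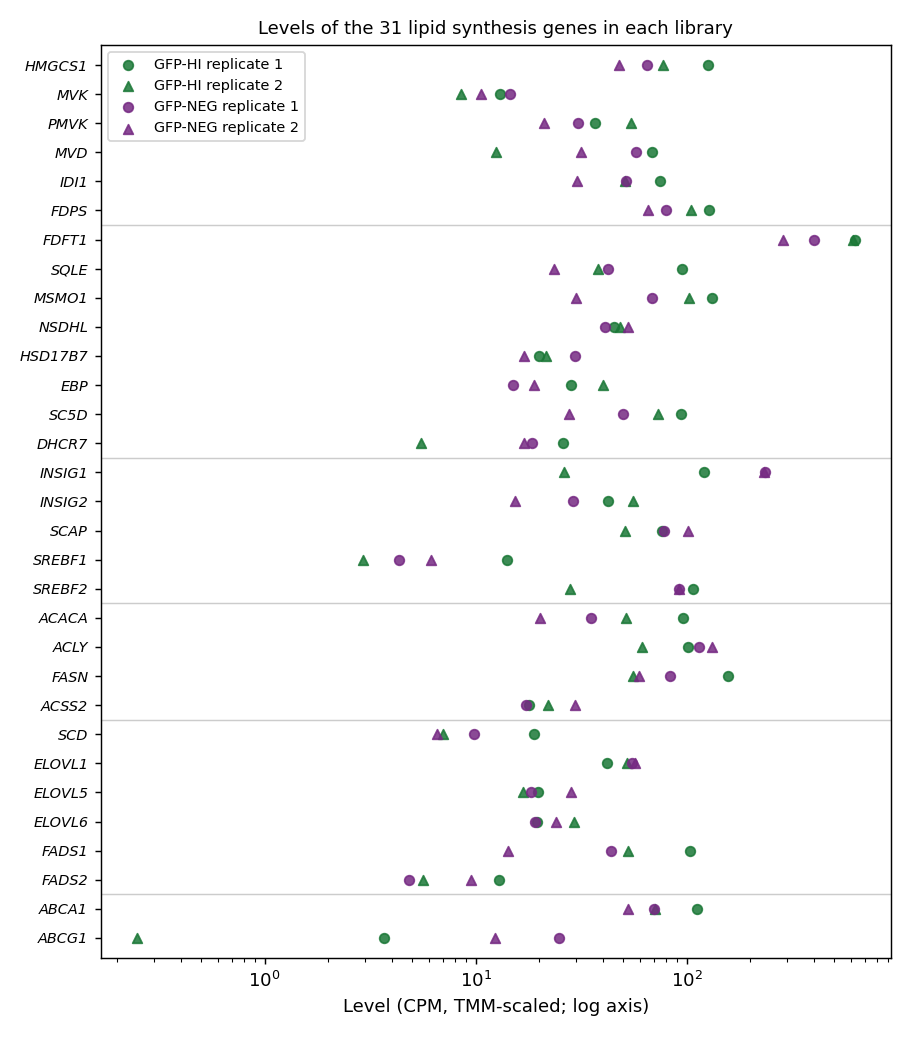
Level of each of the 31 genes in each library (CPM on a log axis), with GFP-HI in green, GFP-NEG in purple, circles for replicate 1 and triangles for replicate 2, and grey lines between roles. INSIG1 and ABCG1 show both GFP-HI libraries to the left of both GFP-NEG libraries, and ACACA and FADS1 show the reverse.

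The mevalonate pathway, which makes the isoprenoid units of sterols, had 0 of 6 genes past the threshold in edgeR and in DESeq2, and 0 at an unadjusted p-value under 0.05. HMGCS1, the synthase that condenses acetoacetyl-CoA with acetyl-CoA, was at 126 and 77.3 CPM in GFP-HI and at 64.9 and 48.0 CPM in GFP-NEG. The fractions did not overlap, but the log2 fold change of 0.85 ± 0.54 (SE) had an adjusted p-value of 0.22. FDPS, farnesyl diphosphate synthase, had the closest replicates of this group, at 128 and 106 CPM in GFP-HI against 79.5 and 65.4 CPM in GFP-NEG. Its difference in log2 CPM, with 0.5 CPM added, was 0.68 in replicate 1 and 0.69 in replicate 2. PMVK, phosphomevalonate kinase, was at 36.7 and 54.8 CPM against 30.6 and 21.2 CPM, again without an overlap. IDI1, the isomerase of isopentenyl diphosphate, reached 74.8 and 51.0 CPM against 51.5 and 30.1 CPM, and the lower GFP-HI library fell just under the higher GFP-NEG one. MVK, mevalonate kinase, lay between 8.58 and 14.6 CPM in all 4 libraries. MVD, the decarboxylase that follows PMVK, was at 68.2 CPM in GFP-HI replicate 1 and 12.4 CPM in GFP-HI replicate 2, which lie above and below the GFP-NEG values of 57.4 and 31.5 CPM.

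The steps from farnesyl diphosphate to cholesterol had 0 of 8 genes past the threshold in edgeR and in DESeq2, and 3 (SQLE, MSMO1 and SC5D, all higher) at an unadjusted p-value under 0.05 in edgeR. Shares of all genes at an unadjusted p-value are not given here, for any list or setting. In edgeR the share higher would be at least the 8.35% of all genes tested that rose after adjustment. The median log2 fold change over the 8 genes, 0.93, was the highest of the roles. FDFT1, squalene synthase, which commits carbon to sterols, was at 626 and 618 CPM in GFP-HI and at 402 and 286 CPM in GFP-NEG. Its GFP-HI libraries were alike and both above GFP-NEG. The log2 fold change was 0.85, with a 95% interval of -0.58 to 2.29 and an adjusted p-value of 0.39. MSMO1, a methylsterol oxidase, was at 133 and 102 CPM against 68.5 and 30.04 CPM, a log2 fold change of 1.26 ± 0.54 (SE) with an adjusted p-value of 0.058. With the replicate number as a block it passed the threshold, at 1.36 and an adjusted p-value of 0.048, and its fold change was 2.02 without GFP-NEG replicate 1 (adjusted p-value of 0.046, over 11 alternatives the lowest) and 0.74 without GFP-NEG replicate 2 (0.70, the highest). SC5D, a sterol desaturase, was at 94.0 and 72.9 CPM against 50.0 and 27.8 CPM, with an adjusted p-value of 0.088. EBP, the sterol isomerase before SC5D, was at 28.3 and 40.2 CPM against 15.1 and 19.0 CPM, with an adjusted p-value of 0.14. These 4 genes were the ones of this role whose fractions did not overlap.

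SQLE, squalene epoxidase, was at 95.4 and 38.1 CPM in GFP-HI and at 42.2 and 23.6 CPM in GFP-NEG, so that the fractions overlapped. NSDHL, a sterol dehydrogenase, lay between 41.1 and 52.8 CPM in all 4 libraries, with a 95% interval of the log2 fold change from -1.01 to 1.00. HSD17B7, a sterol ketoreductase, lay between 16.9 and 29.5 CPM, with an interval from -1.23 to 0.92. DHCR7, the reductase that completes cholesterol, was at 26.1 and 5.50 CPM in GFP-HI, on either side of 18.5 and 17.0 CPM in GFP-NEG.

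**Figure D2:**
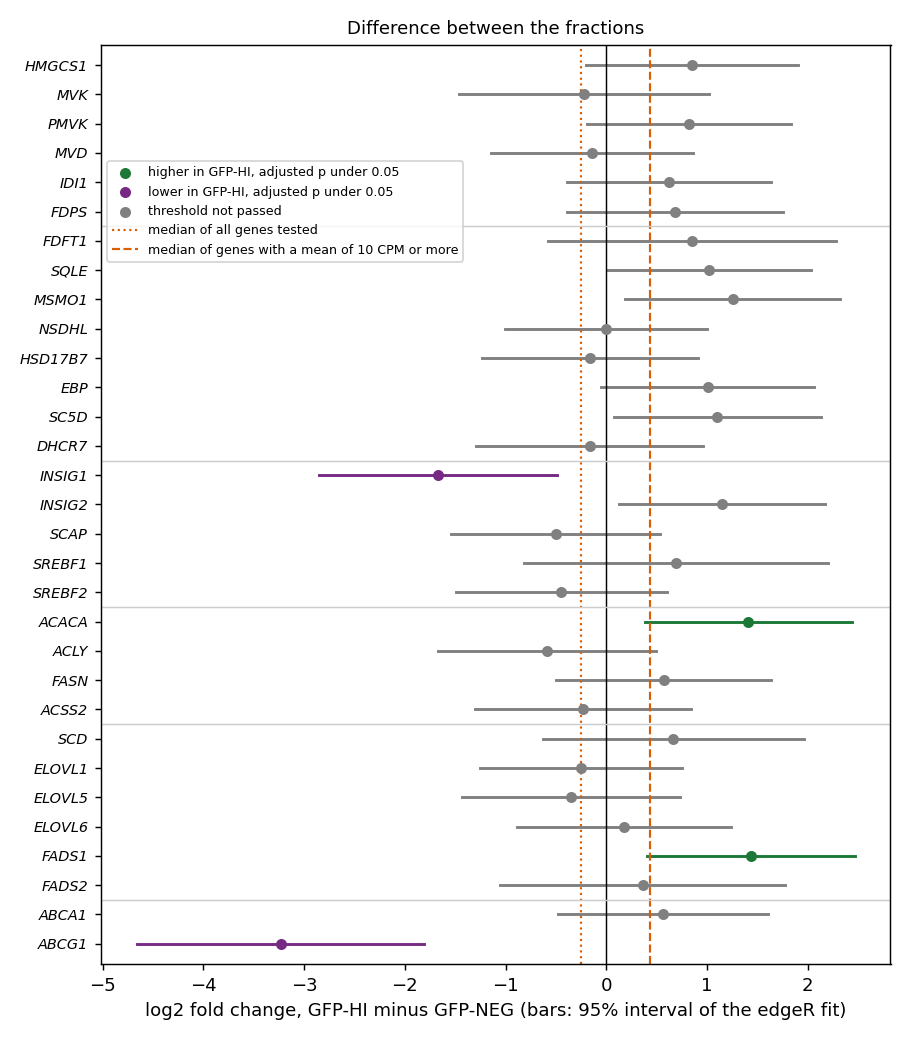
Log2 fold change of each gene, GFP-HI minus GFP-NEG (points), with the 95% interval of the edgeR fit (bars) and grey lines between roles. The points of ACACA and FADS1 (green) lie right of 0 and those of INSIG1 and ABCG1 (purple) left of it, and the vertical lines mark 0, the median of all genes tested (-0.25, dotted) and that of genes of at least 10 CPM (0.43, dashed).

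Among the sterol sensors, INSIG1 fell in GFP-HI and its paralog INSIG2 did not pass the threshold, with an estimate of the opposite sign. INSIG1, which retains SCAP in the endoplasmic reticulum and is itself a target of the sterol regulatory factors, was at 121 and 26.1 CPM in GFP-HI and at 236 and 233 CPM in GFP-NEG. GFP-NEG was nearly constant and GFP-HI was not, yet both GFP-HI libraries lay below it. The fold change was -1.67 ± 0.60 (SE), 3.19-fold lower, with an adjusted p-value of 0.019. The difference in log2 CPM was -0.96 in replicate 1 and -3.13 in replicate 2. Without GFP-HI replicate 2 the fold change was -0.87 and without GFP-HI replicate 1 it was -3.02, so the size rested on which GFP-HI library was used. Its adjusted p-value ranged from 0.0027 to 0.47 over 11 alternatives and passed in 7. It did not pass with a filter of 10 counts in 2 libraries (0.079), without GFP-HI replicate 2 (0.47), without GFP-NEG replicate 1 (0.080) or without GFP-NEG replicate 2 (0.14).

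INSIG2 was at 42.5 and 56.0 CPM in GFP-HI and at 29.0 and 15.3 CPM in GFP-NEG. The fractions did not overlap, and the log2 fold change of 1.15 ± 0.52 (SE) had an adjusted p-value of 0.071. The RefSeq gene table of Sscrofa11.1 has 2 entries named INSIG2, of which 1 is a pseudogene, so its count is uncertain. SCAP, the escort protein, was at 76.4 and 50.8 CPM against 78.4 and 102 CPM, with an adjusted p-value of 0.50. SREBF2, the factor tied mainly to cholesterol genes, was at 107 and 28.1 CPM in GFP-HI and at 91.9 and 91.6 CPM in GFP-NEG. SREBF1, the factor tied mainly to fatty acid genes, was at 14.0 and 2.92 CPM in GFP-HI and at 4.35 and 6.14 CPM in GFP-NEG. For both factors, GFP-HI replicate 1 lay above and GFP-HI replicate 2 below the 2 GFP-NEG libraries, and the difference between fractions changed sign between the replicates (0.22 and -1.69 for SREBF2, 1.59 and -0.95 for SREBF1).

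In fatty acid synthesis, ACACA rose and 3 genes did not pass the threshold. ACACA, acetyl-CoA carboxylase, the committing step that makes malonyl-CoA, was at 96.3 and 51.7 CPM in GFP-HI and at 35.4 and 20.3 CPM in GFP-NEG. The fold change was 1.41 ± 0.52 (SE), 2.66-fold higher, with an adjusted p-value of 0.023 and differences of 1.43 and 1.33 in the 2 replicates. It passed in 5 of 11 alternatives (adjusted p-values from 0.025 to 0.52) and not, among others, without GFP-HI replicate 1 (1.01) or GFP-NEG replicate 2 (1.03). ACLY, which supplies cytosolic acetyl-CoA from citrate, was at 102 and 61.5 CPM against 114 and 132 CPM, lower without an overlap, at an adjusted p-value of 0.44. FASN, the synthase that builds palmitate, was at 156 and 56.0 CPM against 83.4 and 59.7 CPM, so that GFP-NEG lay inside the GFP-HI range. ACSS2, which makes acetyl-CoA from acetate, lay between 17.4 and 29.5 CPM in the 4 libraries.

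FADS1 was the 1 gene of 6 in elongation and desaturation that rose. This front-end desaturase of polyunsaturated fatty acids was at 104 and 52.5 CPM in GFP-HI and at 43.8 and 14.3 CPM in GFP-NEG. The fold change was 1.44 ± 0.53 (SE), 2.71-fold higher, with an adjusted p-value of 0.021 and differences of 1.24 and 1.85 in the 2 replicates. It passed in 4 of 11 alternatives (adjusted p-values from 0.011 to 0.65). Without GFP-NEG replicate 1 the fold change was 2.51, and it no longer passed without GFP-HI replicate 1 (0.96), GFP-HI replicate 2 (1.90) or GFP-NEG replicate 2 (0.80). FADS2, the desaturase that acts before FADS1, was at 12.9 and 5.65 CPM against 4.81 and 9.54 CPM, with overlap. SCD, stearoyl-CoA desaturase, was at 18.9 and 6.99 CPM against 9.78 and 6.58 CPM. The elongases ELOVL1, ELOVL5 and ELOVL6 had log2 fold changes of -0.25, -0.35 and 0.18. Their adjusted p-values were 0.75, 0.66 and 0.83, and their 95% intervals reached from -1.44 to 1.24.

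The largest difference of the set was in cholesterol export. ABCG1, a half-transporter that passes cholesterol to high-density lipoprotein, was at 3.67 and 0.248 CPM in GFP-HI and at 24.8 and 12.4 CPM in GFP-NEG. These levels rest on 81 and 5 counts in the GFP-HI libraries and on 160 and 113 counts in the shallower GFP-NEG libraries. Both GFP-HI libraries lay well below both GFP-NEG libraries. The fold change was -3.23 ± 0.73 (SE), 9.41-fold lower, with an adjusted p-value of 1.2e-04 and differences of -2.60 and -4.11 in the 2 replicates. It passed in 10 of 11 alternatives (adjusted p-values from 1.1e-05 to 0.054). Without GFP-HI replicate 1 it was -6.05, and without GFP-HI replicate 2, the alternative in which it did not pass, it was -2.27. ABCA1, the full transporter that loads apolipoprotein A-I, did not pass the threshold. It was at 112 and 70.9 CPM in GFP-HI and at 70.3 and 52.8 CPM in GFP-NEG, without an overlap. The log2 fold change was 0.57, with an adjusted p-value of 0.44.

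Markers of several other cell types fell in GFP-HI together with ABCG1 and INSIG1. Over all genes tested 27.6% fell in edgeR and 24.9% in DESeq2, and among those with a mean of at least 10 CPM 10.7% fell in edgeR. Of the endothelial markers 6 of 6 fell, with summed levels of 174 to 175 CPM in GFP-HI and 543 to 1275 CPM in GFP-NEG. Of the macrophage markers, 4 of 10 fell in edgeR (2 in DESeq2) and 0 rose, with summed levels of 261 to 345 CPM in GFP-HI and 589 to 1254 CPM in GFP-NEG. The fractions overlapped for 6 of these 10, and the median difference in log2 CPM was -1.91 in replicate 1 and 0.02 in replicate 2. With the replicate block, CD163 (adjusted p-value of 0.15) and C1QB (0.12) no longer passed. C1QB, a complement subunit, was at 117 and 54.1 CPM against 400.0 and 84.5 CPM, with an overlap. CSF1R, the receptor of macrophage colony-stimulating factor and the marker with the largest fall of the 10, was at 50.2 and 17.0 CPM against 238 and 330 CPM. Of the lymphocyte markers 8 of 9 fell (151 to 345 CPM against 1094 to 1803 CPM), and of the neutrophil markers 4 of 5 fell (167 to 185 CPM against 797 to 1908 CPM). None of these endothelial and immune markers was at 0 counts in any library. Of the smooth muscle and pericyte markers 3 of 7 fell and 1 rose (1651 to 2396 CPM against 368 to 2522 CPM). Markers of alveolar type 2 cells, 3 of 8 of which fell, overlapped in sum (165 to 307 CPM against 202 to 500 CPM). Genes induced by tissue dissociation, 6 of 9 of which fell, summed to 1602 to 3026 CPM against 6639 to 10108 CPM. The part of these cells and of dissociation in the levels of ABCG1 and INSIG1 was not tested.

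**Figure D3:**
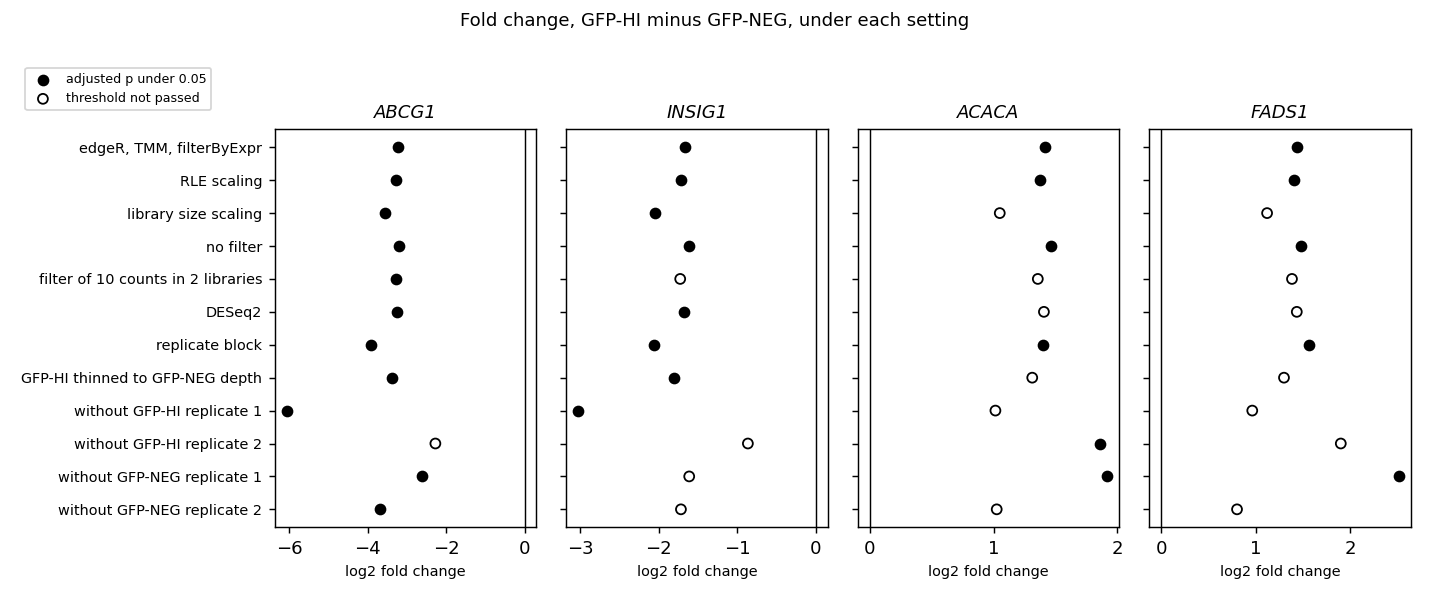
Log2 fold change of the 4 genes past the threshold (GFP-HI minus GFP-NEG) in the edgeR fit used throughout and under 11 alternatives. Filled points passed an adjusted p-value of 0.05 and open points did not; every point of a gene lies on 1 side of 0, and ABCG1 has 1 open point.

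The 2 GFP-HI libraries stood apart in this set. GFP-HI replicate 1 was more than 2-fold above GFP-HI replicate 2 in 10 of the 31 genes (32.3%), and the reverse held for 0. Among genes with a mean of at least 10 CPM these shares were 9.03% and 13.7%, and among all genes tested 15.5% and 16.3%. The 10 genes were MVD, SQLE, DHCR7, INSIG1, SREBF1, SREBF2, FASN, SCD, FADS2 and ABCG1, thus both sterol regulatory factors, INSIG1 and enzymes of both routes. Among genes of the same routes outside the set, 4 of 15 sterol genes were more than 2-fold higher in replicate 1 and 2 in replicate 2. Of the fatty acid genes, 2 of 22 were more than 2-fold higher in replicate 1 and 5 in replicate 2. The difference between these lists and the set was not tested. The ratio of CPM was 14.8 for ABCG1, which had 5 counts in replicate 2, 5.48 for MVD, 4.80 for SREBF1, 4.74 for DHCR7, 4.63 for INSIG1 and 3.81 for SREBF2. In GFP-NEG the same ratio was over 2 for 3 genes (MSMO1, FADS1 and ABCG1), and it was 1.01 for INSIG1, 1.00 for SREBF2 and 1.09 for DHCR7. INSIG2, EBP, PMVK and ELOVL6 had the lowest ratios within GFP-HI, from 0.664 to 0.759. With 1 library on each side this distance has no test.

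**Figure D4:**
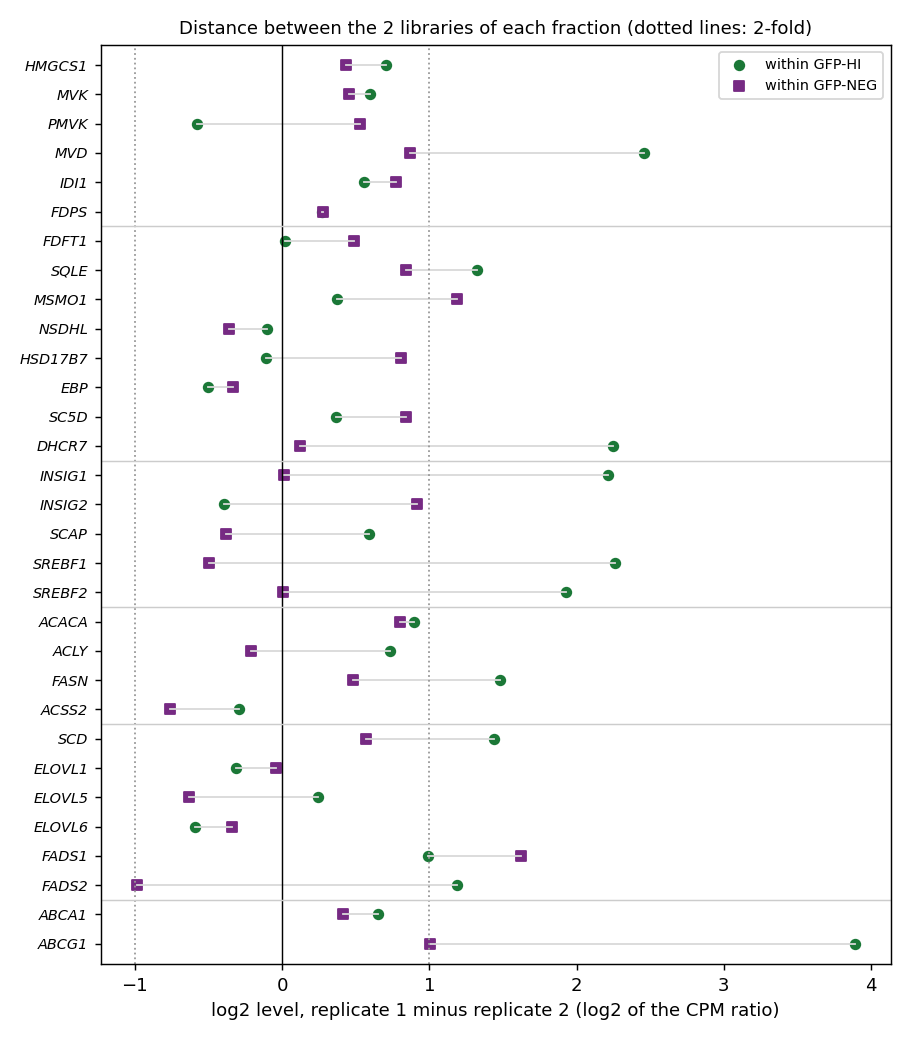
Log2 ratio of CPM, replicate 1 over replicate 2, within GFP-HI (green circles) and within GFP-NEG (purple squares), with dotted lines at 2-fold. Within GFP-HI, 10 of 31 genes lie right of the upper dotted line and 0 lie left of the lower one.

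Other gene lists also differed between the GFP-HI libraries. Dissociation genes summed to 3026 CPM in GFP-HI replicate 1 and 1602 CPM in replicate 2, and 7 of 9 were more than 2-fold higher in replicate 1. Cell cycle genes summed to 254 and 617 CPM, and 5 of 8 were more than 2-fold higher in replicate 2. Lymphocyte markers summed to 151 and 345 CPM and the lipid droplet and adipocyte list to 225 and 532 CPM, in the latter led by PLIN2, a lipid droplet coat protein, at 216 and 514 CPM. The part of any of these in the distance between the GFP-HI libraries was not tested.

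Further genes of the same routes were examined in 3 lists. Over all genes tested, 8.35% rose and 27.6% fell in edgeR (5.60% and 24.9% in DESeq2), with a median log2 fold change of -0.25 in edgeR. Among genes with a mean of at least 10 CPM, 15.2% rose and 10.7% fell, with a median of 0.43. Of the sterol enzymes and regulators outside the set, 4 of 15 rose and 0 fell in edgeR (2 were lower at an unadjusted p-value under 0.05, and 1 fell in DESeq2; with the replicate block STARD4, a sterol carrier, passed as lower at -1.49 and an adjusted p-value of 0.047), with a median log2 fold change of 0.71. MBTPS1, the protease that makes the opening cut in the sterol regulatory factors, was at 46.5 and 58.8 CPM in GFP-HI and at 26.1 and 11.4 CPM in GFP-NEG (log2 fold change of 1.495, adjusted p-value of 0.016). ERG28, a scaffold protein of sterol enzymes, was at 53.0 and 108 CPM against 28.7 and 29.6 CPM (1.46, adjusted p-value of 0.018). The fractions overlapped for neither of these genes.

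Of the fatty acid genes outside the set, 22 were tested in edgeR, 3 rose and 4 fell, with a median of 0.32. In DESeq2, counted over the 24 genes of this list with a row, 2 rose and 6 fell. With the replicate block ELOVL4, an elongase, also passed as higher, at 1.65 and an adjusted p-value of 0.033. Acyl-CoA synthetases, which activate fatty acids, went both ways. ACSL1 was at 27.1 and 17.6 CPM in GFP-HI and at 280 and 104 CPM in GFP-NEG (log2 fold change of -3.10, adjusted p-value of 8.7e-06). ACSL4 was at 91.2 and 55.2 CPM against 517 and 369 CPM (-2.60, adjusted p-value of 7.8e-04). For ACSL6 the edgeR fit gave a log2 fold change of -5.93, with a 95% interval from -8.59 to -3.265 (adjusted p-value of 1.4e-04). This rested on 2 counts in each GFP-HI library, against 43 and 54 in the GFP-NEG libraries. With the counts of each fraction pooled, the ratio of levels was 65.8, with a 95% counting interval from 24.9 to 246. That interval leaves out the spread between libraries. ACSL3 rose by contrast, at 94.6 and 64.9 CPM against 43.8 and 20.2 CPM (1.32, adjusted p-value of 0.035). SLC25A1, the mitochondrial citrate carrier, rose as well, at 23.1 and 18.7 CPM against 6.37 and 6.03 CPM (1.75, adjusted p-value of 0.018). HACD3, a dehydratase of fatty acid elongation, rose by 1.32 (adjusted p-value of 0.045, and 0.053 with the replicate block). MID1IP1, an activator of acetyl-CoA carboxylase, fell by 1.34 (adjusted p-value of 0.030).

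Of the genes of sterol sensing, uptake, storage and transport, 1 of 20 rose and 1 fell, with a median of 0.09. VLDLR, a lipoprotein receptor, was at 6.89 and 5.35 CPM in GFP-HI and at 38.5 and 28.5 CPM in GFP-NEG (-2.45, adjusted p-value of 2.2e-04). NPC2, which carries cholesterol out of lysosomes, was at 121 and 289 CPM against 86.8 and 66.1 CPM (1.42, adjusted p-value of 0.046, and 0.091 with the replicate block). Of these 13 genes past the threshold in the 3 lists, ACSL1, ACSL6 and VLDLR passed in each of 11 alternatives and ACSL4 in 10, failing without GFP-HI replicate 2 (-2.20, adjusted p-value of 0.095). The other 9 passed in 2 to 7 alternatives. Without GFP-HI replicate 1, GFP-HI replicate 2, GFP-NEG replicate 1 and GFP-NEG replicate 2 in turn, 7, 5, 7 and 4 of the 13 remained past it.

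The authors' deposited table lists all 31 genes and gives an adjusted p-value under 0.05 for ABCG1 (log2 fold change of -3.25, adjusted p-value of 0.0043) and INSIG1 (-1.68, 0.038). For ACACA the authors' deposited table gives 1.41 with an adjusted p-value of 0.0502, and for FADS1 it gives 1.43 with 0.077. DESeq2, run here on the same counts, gave the same values for these genes. The deposited values are therefore no independent check.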

How the data were processed

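RNA sequencing of 4 sorted lung libraries was analysed (GFP-HI and GFP-NEG, replicates 1 and 2). The deposited tables hold whole-number counts per gene. The submitters' processing notes name featureCounts, Subread 1.5.2 and DESeq2 1.37.6. The name of the authors' table carries the annotation tag 11.1.105, with no assembly named. The aligner and strand setting are not given in the sources used here, so reads of overlapping genes or close copies may be shared. Per the file headers, the authors' deposited table of the comparison holds a log2 fold change and an adjusted p-value per gene, used only where named. No column of a sample was left over (0).

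Identifiers with a symbol in the gene name table (844) were renamed where the symbol was free (834). Counts were tested with edgeR 4.0.16 in R 4.3.3 (quasi-likelihood F test, TMM scaling, filterByExpr, group as the only term, Benjamini-Hochberg over 19682 genes, threshold 0.05). CPM (counts per 1e6) divide counts by the library's total over the 19682 genes tested and by the TMM factor. The standard error is the log2 fold change over the square root of F, and intervals are at 95%. The common dispersion was 0.239. In simulated counts for 19682 genes, 11.8% of 102 genes changed by a log2 of 2 and 44.3% of 88 changed by 3 were recovered, and 5.56% of 54 calls were false. Far fewer genes changed there than were called in the data (1643 higher and 5433 lower). The adjusted threshold is stricter when fewer genes change, so these shares do not give the recovery in the data.

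Alternatives were RLE or library-size scaling, no filter or at least 10 counts in 2 libraries, DESeq2 1.42.0, the replicate number as a block, GFP-HI thinned to GFP-NEG depth, and each library left out. Headings of the authors' table name pigs 1 and 2 in both fractions, so numbers were taken to pair libraries, though no label ties pig to replicate number. The headings of its normalized columns also do not match their counts, so the pairing is uncertain. Deviations of same-numbered libraries correlated with an r of 0.18 across genes. The members and lists were chosen with earlier results of these data known. All members with a row are named, with up to 6 called genes per direction of each further list, the 2 most abundant genes of a marker list, and LGR5. CD163, STARD4 and ELOVL4 were named after their values were seen. Some called genes of the further lists are counted but not reported here by name. No sequences were used.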

Additional observations from a re-analysis of the deposited data

How the results depend on the processing

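The direction of ABCG1, INSIG1, ACACA and FADS1 was the same under all 11 alternatives. The number of the 31 genes higher in GFP-HI was 2, and 0 with library-size scaling, with a filter of 10 counts in 2 libraries, under DESeq2 and with GFP-HI thinned to the GFP-NEG depth, where 2, 4, 5 and 3 had an unadjusted p-value under 0.05. With single libraries left out it ranged from 0 to 3. The number lower was 2, and 1 with the filter of 10 counts. It ranged from 0 to 2 with libraries left out, when 1 group is a lone library assumed to vary like the others. The median of 0.57 became 0.18 with library-size scaling, 0.31 with the replicate block and 0.39 after thinning. It ranged from 0.072 to 0.83 with libraries left out, where that of all genes tested ranged from -0.59 to 0.032. The replicate block added MSMO1 (1.36) and changed no other call of the set; in the further lists it ended those of HACD3 and NPC2 and added those of STARD4 and ELOVL4. The sign of 13 genes, none past the threshold in either fit, changed in at least 1 alternative. NSDHL was at 0.055 with no filter and 0.0055 with the replicate block, and library-size scaling gave ELOVL6 -0.29 and FADS2 -0.092. With libraries left out the log2 fold change ranged from -0.47 to 0.12 for MVK, -1.72 to 0.69 for MVD, -0.12 to 0.20 for NSDHL, -0.54 to 0.35 for HSD17B7, -1.55 to 0.64 for DHCR7, -0.69 to 1.52 for SREBF1, -1.57 to 0.31 for SREBF2, -0.23 to 1.205 for FASN, -0.51 to 0.17 for ACSS2, -0.095 to 1.29 for SCD, -0.33 to 0.040 for ELOVL1, -0.049 to 0.59 for ELOVL6 and -0.18 to 0.95 for FADS2. Over all genes, 1643 were higher and 5433 lower, against 888 and 5730 with library-size scaling, 951 and 3182 with the filter of 10 counts and 1119 and 3568 after thinning. With libraries left out, 216 to 1635 were higher and 1575 to 4999 lower. The cause was not tested. ABCG1, SREBF1, FADS2 and SCD had the libraries with the fewest counts (5, 28, 31 and 60). Thinning ended the calls of ACACA (1.31) and FADS1 (1.30) and not those of ABCG1 (-3.38) and INSIG1 (-1.80).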
